A study of Macaca mulatta with 10 samples.

Results

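The enzymes described here break down amino acids outside the urea cycle. They are 48 genes chosen by name for their pathways, and their members on the array are the 57 probe sets, of 52865 in all, whose platform annotation gives exactly 1 symbol and that symbol is among the 48. These 57 probe sets stand for 37 of the 14133 genes named in this way. The other 11 genes (BCKDHA, PCCA, PCCB, MUT, GCDH, PRODH, ALDH4A1, GCSH, DAO, CBS and CTH) had no probe set under this rule and are not analysed here, so the propionyl-CoA and proline steps are missing and the transsulfuration step is not covered. UROC1, the urocanate hydratase of histidine breakdown, had a single probe set that lay below the signal filter. The remaining 36 genes were measured by 50 probe sets.

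The samples were livers of rhesus macaques (Macaca mulatta), 5 from brain-dead donors and 5 from living donors that served as controls, with 1 array per animal. Brain death was induced by inflating a balloon catheter outside the dura, and fluid, vasopressin and dopamine were used to keep up arterial pressure. The sample labels put its duration at 6 h, whereas the series' design text says 5 h. Control donors had 1 h of mechanical ventilation under anaesthesia, so the duration of ventilation and the drugs given cannot be told apart from brain death. Livers of both groups were flushed in place with preservation solution. Brain-dead animals 1 and 2 were females aged 7 and 18 years, and animals 3, 4 and 5 were males, 4 and 5 aged 7 years and 3 of unstated age. Control animals 1, 2 and 3 were females aged 16, 10 and 4 years, and animals 4 and 5 were males aged 20 and 10 years. Each value is a MAS5 signal, a brightness on a linear scale that summarises the probes of a probe set, and array medians lay between 175 and 227. With 5 arrays a group, precision is limited throughout.

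The liver is the main site at which most amino acids lose their nitrogen and have their carbon skeletons turned into glucose, ketone bodies or fuel. Branched-chain amino acids are an exception, since their first step takes place largely in muscle and the liver handles the keto acids that return from it. Several of the liver enzymes are classical targets of glucagon, glucocorticoids and diet. The methionine enzymes form a cycle that supplies methyl groups, and betaine, made from choline, returns a methyl group to homocysteine.

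Most of these enzymes had lower signals in the brain-dead livers, and few of the differences passed the test for single genes. Betaine-homocysteine methyltransferase (BHMT), homogentisate dioxygenase (HGD) of tyrosine breakdown and hydroxyanthranilate dioxygenase (HAAO) of tryptophan breakdown fell. Hydroxyisobutyryl-CoA hydrolase (HIBCH) of valine breakdown rose. Of the 36 genes, each represented by its brightest probe set, 3 fell, 1 rose and 32 did not pass (limma on log2 signal, Benjamini-Hochberg adjusted p under 0.05 over all 26653 probe sets tested). Among all 9835 genes measured, 3.87% fell and 2.9% rose, 6.77% together. At an unadjusted p under 0.05, 18 of the 36 genes were lower and 1 was higher, against 1298 lower and 1170 higher of the 9835. The median log2 change of the 36 genes was -0.54 (quartiles -0.84 and -0.19), against -0.0069 (quartiles -0.36 and 0.33) over all genes, and 32 of the 36 changes lay below 0, against 50.5% of all genes. The brain-dead and control animals did not overlap for 6 genes that were lower and 1 that was higher, where 4.15% and 3.65% of all genes were apart in those directions. These enzymes are bright as a list, 12 of the 36 lying among the brightest 979 genes, of which 69 fell, 28 rose and 82 were apart and lower, with a median change of -0.09. The number that fell was 1 without control animal 3 and 6 without control animal 4.

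**Figure D1:**
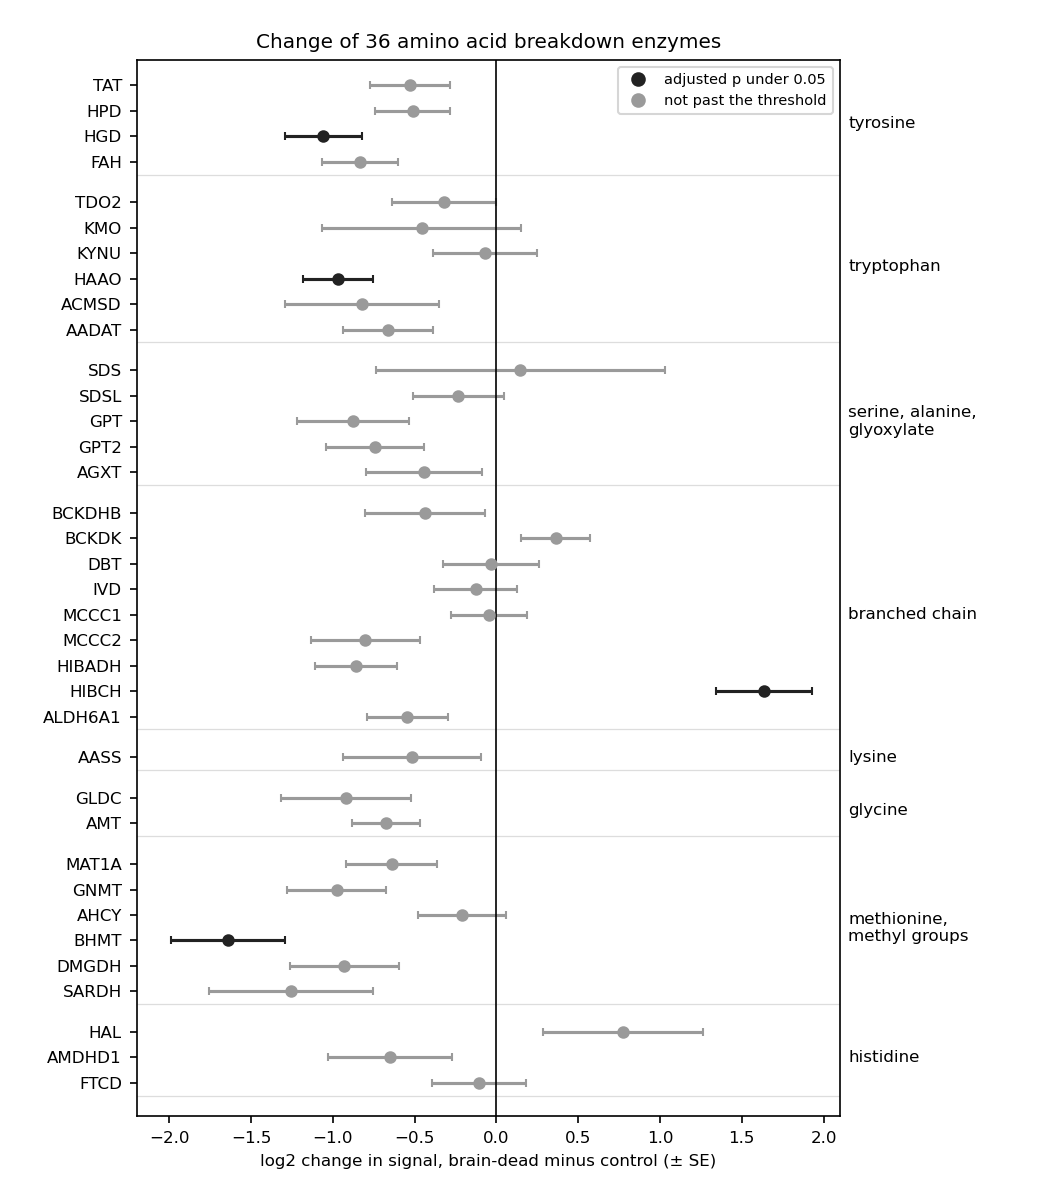
Log2 change in signal (brain-dead minus control, 5 animals each) of the 36 measured enzymes, grouped by pathway from top to bottom, with bars for the standard error of limma. Points lie left of 0 for 32 enzymes, and black marks BHMT, HGD, HAAO and HIBCH, which passed the test.

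Cell type markers were compared between the same animals. Of 9 hepatocyte markers, 6 were on the array (APOA1, APOB, APOC3, SERPINA1, AHSG and FGB). None passed the test, all 6 had a change below 0 with a median of -0.30, and their summed signal was 439802 to 491933 in brain-dead livers, against 506763 to 646786 in control livers. Of 8 neutrophil markers 7 were on the array. S100A8 and S100A9 rose, by 3.85 and 3.54 on the log2 scale. Below the filter, and so untested, S100A12 was higher by 2.48 (mean signals of 212 in brain-dead livers and 39.0 in control livers). MPO, also below the filter, and ELANE, tested without passing, differed by -0.34 and -0.38 near background. CSF3R and FCGR3 had changes of 0.76 and 0.05 that missed the threshold. The summed neutrophil marker signal was 10088 to 57240 in brain-dead livers, against 1893 to 6696 in control livers, and most of that sum came from S100A8 and S100A9 (means of 12411 and 13929 in brain-dead livers, 1043 and 1257 in control livers). None of the macrophage, lymphocyte, endothelial, bile duct, stellate or erythroid markers passed. The part of cell composition in the results was not tested, and in whole tissue fewer hepatocytes and less RNA per hepatocyte cannot be told apart.

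Enzymes of methionine and methyl group turnover had the lowest changes of the pathways with more than 1 measured gene, with a median of -0.95 over 6 genes, all 6 below 0. BHMT passes a methyl group from betaine to homocysteine. Its signal was 31415, 38390, 17302, 15133 and 9664 in brain-dead animals 1 to 5, against 99125, 62467, 47054, 64852 and 47491 in control animals 1 to 5. Every brain-dead animal lay below every control animal, and animal 5 was lowest. BHMT fell by 1.64 ± 0.35 on the log2 scale (SE, n = 5 per group, adjusted p = 0.0189, limma), a 3.12-fold lower level, and it passed under each of the 24 alternatives run (highest adjusted p = 0.0465).

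Sarcosine dehydrogenase (SARDH) and dimethylglycine dehydrogenase (DMGDH) take the remaining methyl groups off the products of betaine. The brightest SARDH probe set read 2663, 1845, 2232, 1542 and 591 in the brain-dead livers and 4337, 7776, 5170, 1074 and 4128 in the control livers. Control animal 4 lay below all brain-dead animals except animal 5, and the change of -1.25 ± 0.50 did not pass (adjusted p = 0.151, limma), while without control animal 4 it was -1.71 and passed (0.0228). A second SARDH probe set, whose probes may also match other transcripts, read 1810, 1312, 1318, 1591 and 875 in brain-dead livers, against 3334, 4890, 3510, 1316 and 3614 in control livers. That probe set fell by 1.19 ± 0.33 in log2 signal (adjusted p = 0.0484, limma). Its call was lost under 14 of 23 alternatives, among them the removal of any 1 array but that of control animal 4 (range of adjusted p over the alternatives 0.00594 to 0.121).

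Methionine adenosyltransferase (MAT1A), which makes the methyl donor S-adenosylmethionine, read 45663, 31879, 32829, 50007 and 15608 in brain-dead livers, against 58570, 51591, 39747, 57697 and 49552 in control livers. The groups overlapped and the change of -0.64 ± 0.28 did not pass (adjusted p = 0.182, limma). Glycine N-methyltransferase (GNMT), which spends that donor on glycine, had a change of -0.98 ± 0.30, DMGDH one of -0.93 ± 0.33, and adenosylhomocysteinase (AHCY) one of -0.21 ± 0.27, none past the threshold. GNMT, DMGDH, AHCY and the other members given only with their change and error were named after their values were seen.

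All 4 measured enzymes of tyrosine breakdown had changes below 0, with a median of -0.68. Tyrosine aminotransferase (TAT) opens the pathway and is induced by glucocorticoids. TAT read 25435, 49827, 39050, 57676 and 46914 in brain-dead livers, against 81832, 62398, 41752, 71940 and 54748 in control livers. Brain-dead animals 2, 4 and 5 overlapped the controls, and the change was -0.53 ± 0.24 (adjusted p = 0.207, limma). HGD, which opens the ring of homogentisate, read 15449, 19003, 13882, 18988 and 8102 in brain-dead livers, against 28961, 26709, 33579, 28108 and 33666 in control livers. The HGD groups lay apart, with brain-dead animal 5 lowest.

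HGD fell by 1.06 ± 0.24 on the log2 scale, a 2.08-fold lower level (adjusted p = 0.0224, limma). Its other measured probe set did not pass, at -0.30 ± 0.24. The HGD call ended without control animal 3, without both animals numbered 1, with age and sex as covariates and with the mean of its probe sets (adjusted p = 0.0560, 0.0561, 0.0758 and 0.0671, and 0.0136 to 0.0758 over all alternatives). Fumarylacetoacetase (FAH), the last enzyme of the pathway, read 17736, 12196, 18012, 17464 and 10978 in brain-dead livers, against 27264, 39887, 24474, 19066 and 26275 in control livers. These groups also lay apart, and the change of -0.83 ± 0.23 missed the threshold (adjusted p = 0.0506, limma, 0.0273 to 0.124 over all alternatives). The dioxygenase HPD between TAT and HGD had a change of -0.51 ± 0.23.

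Tryptophan is opened in the liver by tryptophan dioxygenase (TDO2) and passes through kynurenine towards NAD or complete oxidation. The 6 measured members of this route had changes below 0, with a median of -0.56, while IDO1, which is not among the 48 genes and catalyses the same step as TDO2, rose (given with the companions). TDO2 read 39292, 56532, 19519, 73701 and 54099 in brain-dead livers, against 53983, 51945, 38516, 82993 and 58503 in control livers. The groups overlapped widely, and the change was -0.32 ± 0.32 (adjusted p = 0.585, limma), or 0.012 with age and sex as covariates. HAAO makes the precursor of quinolinate, from which NAD is built. HAAO read 7033, 4028, 5006, 7037 and 4461 in brain-dead livers, against 9910, 12675, 10457, 9464 and 10366 in control livers.

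Every brain-dead animal lay below every control animal for HAAO, which fell by 0.97 ± 0.21 on the log2 scale, a 1.96-fold lower level (adjusted p = 0.0219, limma). Its call ended without brain-dead animal 3 or 5 and without control animal 2 or 3 (adjusted p = 0.0513, 0.0556, 0.0600 and 0.0518, 0.0128 to 0.0600 over all alternatives). Kynureninase (KYNU), which leads to the substrate of HAAO, read 7378, 6835, 5361, 5850 and 16600 in brain-dead livers, against 8439, 11409, 8649, 4801 and 8417 in control livers. Brain-dead animal 5 stood above the other 9 animals and also had the highest summed neutrophil marker signal, most of it S100A8 and S100A9, whose part was not tested. The change of KYNU over the group was -0.07 ± 0.32. Changes of KMO (-0.46 ± 0.61), ACMSD (-0.82 ± 0.47) and AADAT (-0.66 ± 0.27) did not pass, and KMO ranged from 612 to 6141 in brain-dead livers, against 808 to 4675 in control livers.

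In the branched-chain pathway HIBCH rose, while 1 of 3 probe sets of HIBADH, the next enzyme of valine breakdown, fell. HIBCH frees hydroxyisobutyrate from its CoA ester, hydroxyisobutyrate dehydrogenase (HIBADH) oxidises it, and ALDH6A1 makes propionyl-CoA from the product. HIBCH read 7118, 4792, 5935, 9704 and 12053 in brain-dead livers, against 2928, 2477, 1415, 3067 and 2620 in control livers. The groups lay apart, brain-dead animal 5 was highest and control animal 3 lowest. HIBCH rose by 1.63 ± 0.29 on the log2 scale, a 3.10-fold higher level (adjusted p = 0.00911, limma), and passed under each of the 24 alternatives run (highest adjusted p = 0.0302). It was measured by a single probe set.

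The brightest HIBADH probe set read 10722, 8967, 9750, 9490 and 4439 in brain-dead livers, against 14568, 14286, 18088, 16576 and 12392 in control livers. These groups lay apart, with brain-dead animal 5 lowest, and the change of -0.86 ± 0.25 missed the threshold (adjusted p = 0.0577, limma). A second HIBADH probe set read 5677, 3932, 4985, 5231 and 2525 in brain-dead livers, against 10189, 8952, 9062, 9062 and 7733 in control livers. It fell by 1.06 ± 0.24 in log2 signal (adjusted p = 0.0226, limma), a call that ended without control animal 2 or 3 and with age and sex as covariates (adjusted p = 0.0537, 0.0537 and 0.0559, and 0.0110 to 0.0559 over all alternatives). The remaining HIBADH probe set had a change of 0.10 ± 0.37, and its groups overlapped (1880 to 4986 in brain-dead livers, 1530 to 4811 in control livers). So the direction for HIBADH differed between probe sets, and only 1 of 3 passed.

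**Figure D2:**
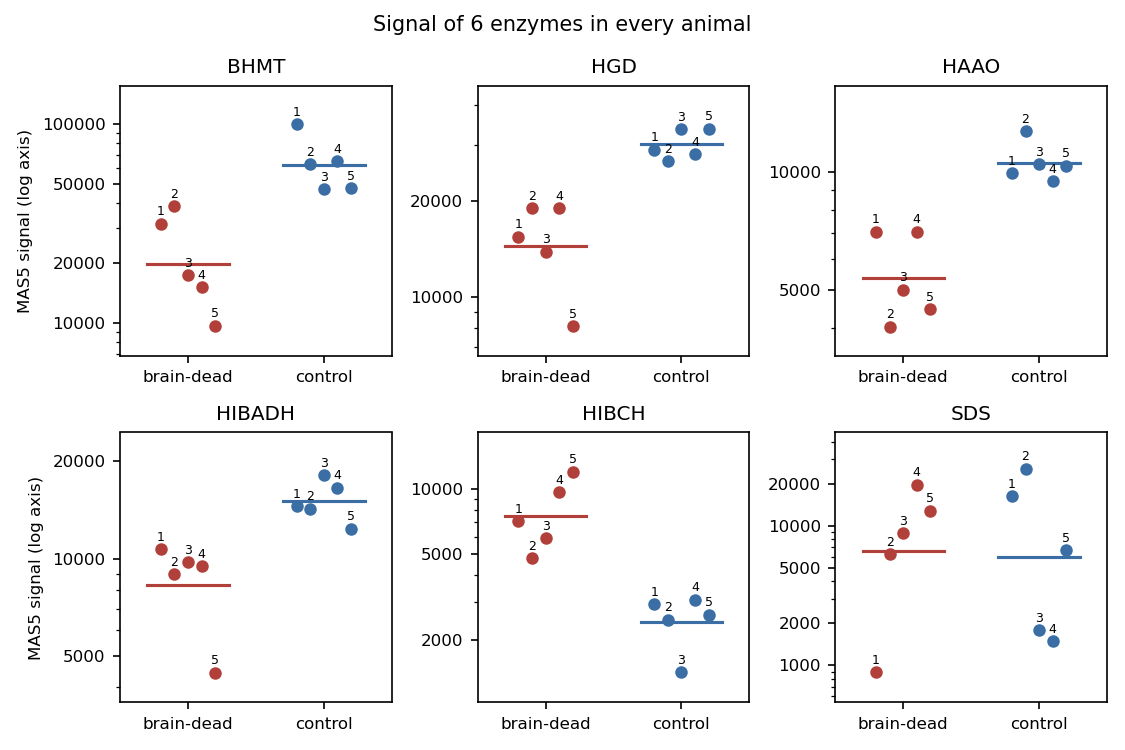
MAS5 signal on a log axis of 6 enzymes in every animal, brain-dead animals left and control animals right, with the animal number above each point and a bar at the mean of the log2 values. The groups lie apart for BHMT, HGD, HAAO, HIBADH (brightest probe set) and HIBCH, whereas SDS spans 894 to 19681 in brain-dead livers and 1491 to 25578 in control livers.

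The other 7 branched-chain members did not pass. The kinase BCKDK, which switches off the dehydrogenase of branched-chain keto acids, had a change of 0.36 ± 0.21. Of that dehydrogenase's subunits BCKDHB had a change of -0.44 ± 0.37 and DBT one of -0.03 ± 0.30 at a signal near the array medians. The probes of this BCKDHB probe set may also match other transcripts, and the other measured BCKDHB probe set had a change of -0.16. In leucine breakdown IVD had a change of -0.13 ± 0.25, MCCC1 one of -0.05 ± 0.23 and MCCC2, the partner subunit of MCCC1, one of -0.80 ± 0.33. ALDH6A1 was measured by 4 probe sets, with changes of -0.54, -0.53, -0.78 and 0.07, none past the threshold.

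Serine dehydratase (SDS), which turns serine into pyruvate and responds strongly to feeding state, varied more between animals than any other measured member. It read 894, 6269, 8800, 19681 and 12779 in brain-dead livers, against 16271, 25578, 1790, 1491 and 6709 in control livers. The SD of its log2 signal was 1.72 in brain-dead and 1.84 in control livers, where the median SD over the 36 genes was 0.55 and 0.46. Its change of 0.15 ± 0.89 did not pass (adjusted p = 0.943, limma), and its sign depended on which animal was left out. The alanine aminotransferases GPT and GPT2 had changes of -0.88 ± 0.34 and -0.74 ± 0.30, the alanine-glyoxylate aminotransferase AGXT one of -0.44 ± 0.36, and SDSL, a relative of SDS, one of -0.23 ± 0.28. None of these 4 passed.

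Both measured members of the glycine cleavage system had changes below 0. Glycine decarboxylase (GLDC), its first enzyme, read 5998, 5028, 2281, 4471 and 7489 in brain-dead livers, against 9390, 10076, 14443, 3357 and 12130 in control livers. Control animal 4 lay below all brain-dead animals except animal 3, and the change of -0.92 ± 0.40 did not pass (adjusted p = 0.180, limma), though it did without control animal 4 (-1.27, adjusted p = 0.0297). The aminomethyltransferase AMT read 4273, 2887, 3479, 4139 and 2444 in brain-dead livers, against 5892, 5621, 5438, 4581 and 5470 in control livers. These AMT values are of its brightest probe set, whose probes may also match other transcripts. Its groups lay apart, and its change of -0.68 ± 0.21 did not pass (adjusted p = 0.0729, limma). The other measured AMT probe set had a change of -0.36 ± 0.19 (adjusted p = 0.279, limma). Its groups overlapped (699 to 1011 in brain-dead livers, 867 to 1278 in control livers).

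Each member was listed under 1 pathway only. The only measured member listed under lysine breakdown and the 3 listed under histidine breakdown did not pass. AASS, the bifunctional enzyme that opens lysine breakdown, read 5102, 3313, 6779, 6450 and 3128 in brain-dead livers, against 19948, 5037, 3096, 7236 and 6120 in control livers, where control animal 1 stood above all others. Its change was -0.51 ± 0.42 (adjusted p = 0.494, limma). Histidine ammonia-lyase (HAL), the entry enzyme of histidine breakdown, was higher on average in brain-dead livers.

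HAL read 3610, 3420, 1589, 4519 and 5707 in brain-dead livers, against 2492, 960, 917, 5871 and 2687 in control livers. Control animal 4 was the highest of all 10 animals, and the change of 0.77 ± 0.49 did not pass (adjusted p = 0.361, limma). The other measured HAL probe set had a change of 0.17 ± 0.50 (adjusted p = 0.875, limma). The next steps of the pathway had changes of -0.65 ± 0.38 for AMDHD1 and -0.10 ± 0.29 for FTCD, whose probes may also match other transcripts. UROC1, below the filter and not tested, read 18.4 to 136 in brain-dead livers, against 47.6 to 240 in control livers.

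Of the 36 genes 11 had more than 1 probe set measured. In 8 of the 11 all probe sets of the gene had changes of 1 sign, and SDS, HIBADH and ALDH6A1 had both signs. Counted by probe set, 5 of the 50 fell and 1 rose, where 3.39% and 2.72% of all probe sets tested did so.

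**Figure D3:**
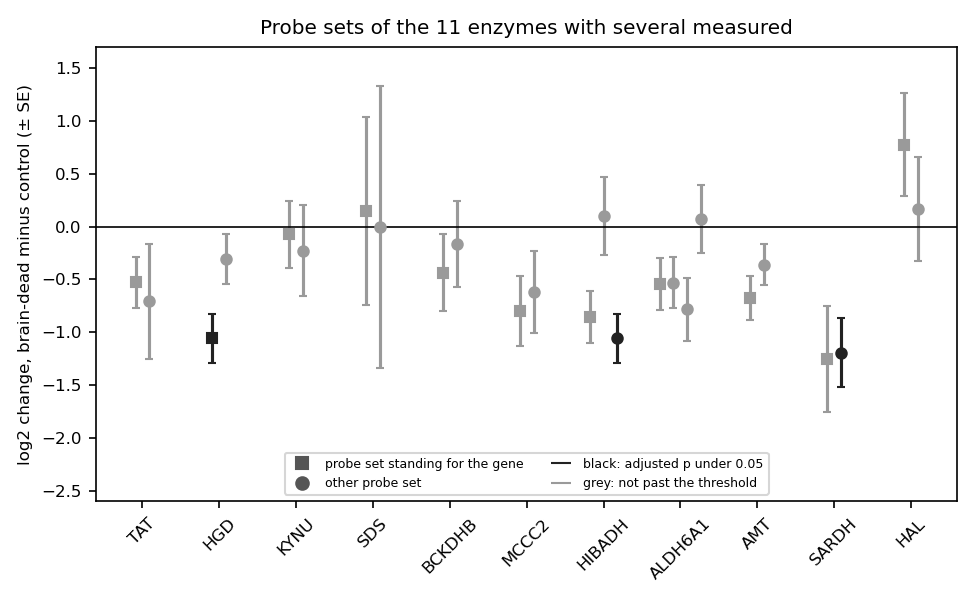
Log2 change (brain-dead minus control, bars for the standard error) of every measured probe set of the 11 enzymes that had several. Squares stand for the gene in the counts, and black points passed the test. The HIBADH probe sets lie at -0.86, -1.06 and 0.10.

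Animals differed in how low these enzymes were. The median of the 36 log2 signals relative to the control means was -0.34, -0.50, -0.62, -0.21 and -0.94 in brain-dead animals 1 to 5, against 0.16, 0.07, -0.23, -0.19 and 0.04 in control animals 1 to 5. Brain-dead animal 4 lay within the range of the controls. Over all 9835 genes the same median stayed between -0.0030 and 0.038 in brain-dead animals and between -0.049 and 0.059 in controls. Brain-dead animal 5 had the lowest signal of the 10 animals for 14 of the 36 genes, and control animals 1 and 2 had the highest for 12 and 11. Without brain-dead animal 5 the median change of the 36 genes was -0.44, and without each array in turn it stayed between -0.67 and -0.44.

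**Figure D4:**
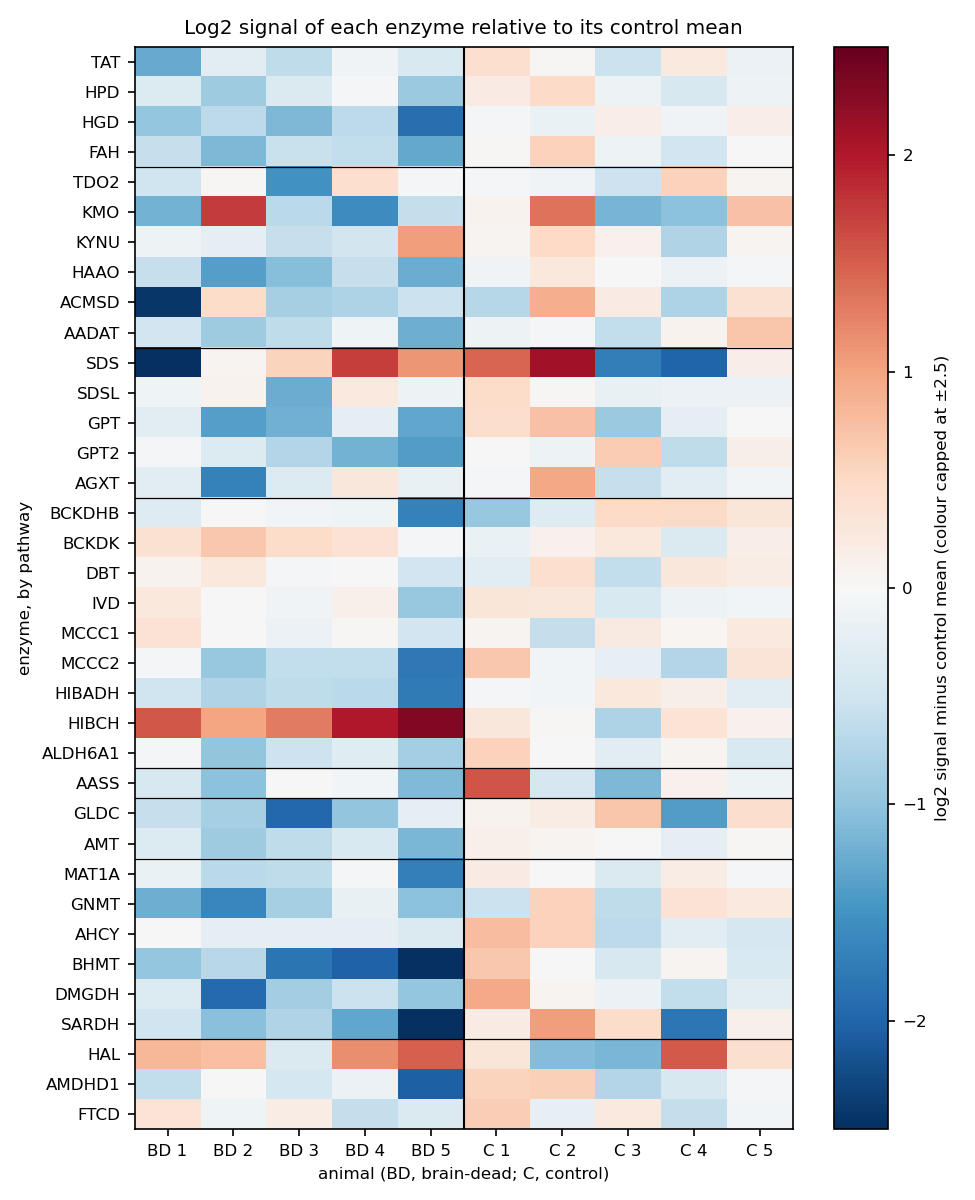
Log2 signal of each enzyme (vertical axis, by pathway) in each animal (horizontal axis, brain-dead left of the line and control right), relative to its mean in control livers. Blue is lower and red higher. HIBCH is red in all 5 brain-dead animals. BHMT, HGD, FAH, HAAO, HIBADH and AMT, whose groups lay apart, are blue in all 5, as are further enzymes such as TAT, GNMT and SARDH. SDS and KMO vary within both groups.

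Of 49 further amino acid breakdown genes listed as companions, 36 had a probe set and 33 were measured. Of these 33, 7 fell, 1 rose and 25 did not pass, with a median change of -0.69. Among all 9835 genes measured 3.87% fell and 2.9% rose, with a median change of -0.0069. PIPOX, which oxidises pipecolate and sarcosine, had the largest change among the 7 and fell by 2.16 ± 0.30 in log2 signal (adjusted p = 0.00338, limma). The serine hydroxymethyltransferase SHMT1 fell by 1.25 ± 0.25 and BHMT2, which uses S-methylmethionine as methyl donor, by 1.15 ± 0.23. The probes of this SHMT1 probe set may also match other transcripts, and the other measured SHMT1 probe set also passed, at -1.32. CSAD of taurine synthesis fell by 1.41 ± 0.27. The lysine enzymes ALDH7A1 and DHTKD1 fell by 0.93 ± 0.23 and 1.30 ± 0.35 (adjusted p = 0.0339 and 0.0466, limma). The groups overlapped for ALDH7A1 and for DHTKD1. The other measured DHTKD1 probe sets did not pass, at -0.76, -0.73 and -0.90. The leucine enzyme AUH fell by 0.94 ± 0.25 (adjusted p = 0.0409, limma).

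The companion that rose was IDO1, the interferon-inducible enzyme that opens tryptophan outside hepatocytes as TDO2 does within them. Its change was 1.90 ± 0.34 (adjusted p = 0.00859, limma), with mean signals of 2761 in brain-dead and 723 in control livers, and its groups lay apart. The number of companions that fell was 4 without brain-dead animal 3 or 5 or control animal 2 or 5, and 11 without control animal 4.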

How the data were processed

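RNA of 10 livers was labelled with biotin and hybridised to 1-colour arrays, 1 per animal. Per the submitters' processing notes the authors computed the deposited intensity of each probe set with MAS5 (version not given in the sources used here). Deposited values are linear, and the 2% trimmed mean was 1000 on every array. Signals were put on a log2 scale with no pseudocount. After removal of 99 control probe sets, those above the array median on 5 or more of the 10 arrays were tested, 26653 in all. Names came from the platform annotation of 2016, in which 24969 probe sets have 1 symbol, 361 several and 27535 none. The fit was limma 3.58.1 in R 4.3.3 (lmFit, eBayes with trend, group alone), with p-values adjusted by Benjamini-Hochberg over these 26653 at a threshold of 0.05. It was also run on simulated data with shifts larger than the change of any member. That run says nothing on how well changes of the members' size are found. A gene was represented by its kept probe set with the highest mean log2 signal, and ± gives limma's standard error. Replicate numbers are used here to name animals, and the sample titles do not say whether same-numbered animals were paired.

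Given per animal were 13 genes: members with a probe set past the threshold or with probe sets of opposite sign over 1 apart, and entry enzymes whatever their values. FAH, AMT and KYNU were added after their values were seen. The members and lists were chosen with earlier results of these data known. Alternatives changed the scaling, pseudocount (16 or 64), filter, covariates, replicate block, eBayes setting, array weights, probe set rule and arrays. The R package for reading files was data.table, version 1.17.8, and figures drawn with matplotlib 3.10.9 in Python 3.11.15.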

Additional observations from a re-analysis of the deposited data

Results flagged for a closer look

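Among 78 groups of 5 animals examined (39 probe sets, each in brain-dead and in control livers), 6 had 1 animal far from the other 4 on the log2 scale, where chance gives about 1 in 20. The measure is the gap to the nearest animal divided by the range of the group. In brain-dead livers it was 0.812 for BCKDHB (animal 5 at 879, the others at 2272 to 2829), 0.797 for the brightest HIBADH probe set (animal 5 at 4439, the others at 8967 to 10722), 0.748 for SDSL (animal 3 at 1438, the others at 3098 to 4014) and 0.718 for KYNU (animal 5 at 16600, the others at 5361 to 7378). In control livers it was 0.772 for MCCC1 (animal 2 at 1701, the others at 2661 to 3037) and 0.724 for HIBCH (animal 3 at 1415, the others at 2477 to 3067).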

How the results depend on the processing

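BHMT and HIBCH kept their direction and passed under all 24 alternatives each. The alternatives covered 39 entries, the 36 genes and further probe sets of HIBADH and SARDH. Over the 930 combinations of an entry and an alternative, 861 kept direction and side of the threshold, 25 lost a call, 14 gained one and 30 changed sign. Of the lost calls, 14 were of the second SARDH probe set, 3 of the second HIBADH probe set, 4 of HGD and 4 of HAAO. The number of members that fell (3) was 5 with a signal filter at the 75th percentile, 5 with the replicate block, 5 with array weights, 4 with either pseudocount or with sex as a covariate, 2 with age and sex as covariates, 2 without both animals numbered 1, and 1 to 6 without each array in turn. The number of companions that fell (7) was 4 when arrays were centred on their medians, 4 without a filter, 13 with the filter at the 75th percentile, 12 with the replicate block, 11 with array weights, and 4 to 11 without each array in turn. With the replicate block 2 companions rose (1 without it). The cause was not tested. Same-numbered animals deviated together with correlations of 0.38, 0.064, 0.13, 0.089 and 0.13 for numbers 1 to 5, all above 0 and not all above 0.1. Of the 5 brain-dead animals, 2 correlated best with their own number. The block is no part of the main test. With it 3013 of the 26653 probe sets passed, against 1627 in the main test. Whether the numbers mark pairs or shared handling was not tested. Members that had not passed changed sign, still without passing: DBT at 0.035 with quantile normalization, 0.036 centred on medians, 0.045 with age and sex as covariates and 0.033 with array weights, MCCC1 at 0.022 centred on medians, and, with age and sex as covariates, TDO2 at 0.012 (main change -0.32), SDS at -0.0059, SDSL at 0.058 (main change -0.23) and the remaining HIBADH probe set at -0.15. Without each array in turn the change ranged from -0.35 to 0.057 for KYNU, -0.35 to 0.019 for SDSL, -0.35 to 0.87 for SDS, -0.16 to 0.31 for that HIBADH probe set, -0.25 to 0.050 for FTCD, -0.19 to 0.080 for DBT, -0.23 to 0.078 for IVD and -0.19 to 0.062 for MCCC1. The fit with sex and age leaves out the animal of unstated age. Low signals limit what can be said of DBT (near the array medians), FTCD (somewhat above them) and UROC1 (mostly below them). Nothing in the labels shows whether animals were handled in batches.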

Other observations

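With 2 or 3 animals of a sex in each group, the interaction of sex with brain death called 0 of all 26653 probe sets (limma, Benjamini-Hochberg adjusted p under 0.05, lowest of a member gene 0.9998), so it says nothing on whether the 36 members differed between the sexes. At an unadjusted p under 0.05 there was 1 member of the 36, SDS, a number that chance alone can give. SDS had a log2 change of 2.04 in males and -1.94 in females (difference 3.98, unadjusted p = 0.0249 in limma). These values came from 3 brain-dead and 2 control males and 2 brain-dead and 3 control females. SDS also varied most between animals of the measured members (SD of log2 signal 1.72 in brain-dead and 1.84 in control livers). BHMT missed the unadjusted threshold, with a change of -2.03 in males and -0.93 in females (unadjusted p = 0.0521 in limma). Neither gene is read as differing between the sexes. The other SDS probe set, like the first, spread widely within both groups, at 24.3 to 1185 in brain-dead livers and 34.6 to 3748 in control livers.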
